A study of Rattus norvegicus with 6 samples.

Results

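The circadian clock genes described here are Per1, Per2, Per3, Cry1, Cry2, Clock, Nr1d1, Nr1d2, Dbp and Usp2. They were chosen by symbol as components of the molecular clock and its direct outputs, with earlier results of these data known. All 10 were present among the 38445 genes of the count tables. The amygdala of adult male wild-type Sprague Dawley rats was profiled by RNA-seq. Control rats received saline and the others ethanol at 1 g/kg, both by intraperitoneal injection, and the tissue was collected 1 h later. Each group held 6 rats, and the RNA of 2 rats was pooled for each library, which gave 3 control and 3 ethanol libraries. A library is therefore an average over 2 animals, and the p-values measure the spread between such pools. The time of day at which the rats were injected and the tissue was taken is not given in the sources used here.

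In mammalian cells the protein CLOCK, paired with BMAL1 (gene Arntl), binds E-box sequences and switches on the period (Per) and cryptochrome (Cry) genes, whose proteins return to the nucleus and silence that activity. The nuclear receptors REV-ERB alpha and beta (Nr1d1 and Nr1d2) are switched on by the same pair and repress Arntl, which forms a second loop, while Dbp and Usp2 carry the rhythm to other genes and proteins. Brain regions outside the suprachiasmatic nucleus, the amygdala among them, hold local clocks of this kind. Per1 differs from most of the set in that it is also an immediate response gene for cyclic AMP signaling and for glucocorticoid hormones.

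The number of reads assigned to genes lay between 62576504 and 70755739 per library, and a clock gene was read at least 865 times (Cry1) and at most 8758 times (Cry2) in a library. Levels are given as CPM, the reads of a gene relative to all assigned reads of the library, scaled between libraries by the trimmed mean of M values (TMM). Markers of both amygdala neuron classes were present in every library, with summed levels of 706 to 1476 CPM for 10 genes of cortical-type glutamatergic neurons and 1089 to 1435 CPM for 12 genes of striatal-type GABA neurons. Six6, which marks the suprachiasmatic nucleus, did not exceed 0.316 CPM, and Prok2, another gene of that nucleus, did not exceed 0.378 CPM. Other genes of that nucleus and of the hypothalamus were present, and the 11 listed summed to 55.2 to 366 CPM. Vip had 15.3 to 28.3 CPM, Rgs16 18.5 to 28.4, Avp 2.84 to 69.0 and Oxt 1.295 to 39.2. Markers of neighbouring tissue differed between libraries. The summed level of 14 choroid plexus markers was 555 to 1211 CPM in the control libraries. It was 15.8, 17.4 and 518 CPM in ethanol libraries 1, 2 and 3, so ethanol library 3 came close to the lowest control library. Of the 14 markers, 13 could be tested and all 13 had a log2 fold change below 0, and none of the 14 was at 0 throughout. Ependymal markers summed to 134 to 176 CPM in the control and 119 to 126 CPM in the ethanol libraries. Ethanol library 3 held 206.5 CPM of the hypothalamic peptide gene Pmch against 2.12 to 14.5 CPM in the other libraries.

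Promoter windows were taken from RefSeq for build GRCr8, each covering the 250 bases before a listed start and the 50 bases from it. Windows existed for 9 of the 10 genes, Cry1 being the exception. They were searched on both strands for the E-box (CACGTG) and the E'-box (CACGTT), which CLOCK and BMAL1 bind, for the D-box of DBP (TTATGTAA or TTATGCAA), for the cyclic AMP response element (TGACGTCA) and for the glucocorticoid response element. The windows below are those of the pair of genes with the largest differences between groups, Per1 and Usp2, and of the Per2 and Nr1d1 genes, whose windows hold clock motifs. Capitals mark the motifs found, and each window is written along the strand of its gene.
Per1 (chr10:54304126-54304425, plus strand): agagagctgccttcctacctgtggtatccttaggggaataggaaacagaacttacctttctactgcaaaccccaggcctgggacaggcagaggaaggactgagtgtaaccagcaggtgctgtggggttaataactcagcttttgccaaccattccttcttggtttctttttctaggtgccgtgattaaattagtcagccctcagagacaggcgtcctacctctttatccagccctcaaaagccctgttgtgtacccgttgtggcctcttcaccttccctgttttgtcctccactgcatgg
Usp2 (chr8:53310620-53310919, plus strand): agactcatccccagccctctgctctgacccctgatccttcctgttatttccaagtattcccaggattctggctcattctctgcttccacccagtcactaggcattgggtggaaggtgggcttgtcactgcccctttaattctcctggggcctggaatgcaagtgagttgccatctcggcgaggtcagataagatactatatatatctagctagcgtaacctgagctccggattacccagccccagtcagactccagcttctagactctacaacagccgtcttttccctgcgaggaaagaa
Per2 (chr9:99496944-99497243, minus strand): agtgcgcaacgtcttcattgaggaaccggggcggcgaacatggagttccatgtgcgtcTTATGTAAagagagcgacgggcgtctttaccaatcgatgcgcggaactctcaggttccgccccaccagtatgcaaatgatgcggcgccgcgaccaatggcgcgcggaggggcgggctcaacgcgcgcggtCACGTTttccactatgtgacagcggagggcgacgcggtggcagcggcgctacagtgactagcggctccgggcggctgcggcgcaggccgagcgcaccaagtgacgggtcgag
Nr1d1 (chr10:84229405-84229704, minus strand): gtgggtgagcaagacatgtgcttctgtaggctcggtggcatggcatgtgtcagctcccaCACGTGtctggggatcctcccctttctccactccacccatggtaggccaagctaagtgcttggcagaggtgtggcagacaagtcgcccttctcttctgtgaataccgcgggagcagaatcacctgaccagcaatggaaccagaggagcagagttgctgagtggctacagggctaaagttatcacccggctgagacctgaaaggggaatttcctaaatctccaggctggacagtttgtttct
The Per2 window held a D-box that begins 192 bases before the start and an E'-box that begins 62 bases before it. The Nr1d1 window held an E-box 191 bases before its start, and a second Nr1d1 window held an E'-box 174 bases before its own, on the strand opposite to the gene. The Cry2 window held an E'-box 212 bases before the start, also on the opposite strand. No searched motif was found in the windows of Per1, Per3, Clock, Nr1d2, Dbp or Usp2. The starts of the Per1 and Usp2 windows lie inside the spans of those genes, so other starts of the same genes are not covered. The Nr1d1 window printed above lies downstream of the second Nr1d1 window along the gene, so its start is an internal one as well. Of all 33469 windows in the table, 6.42% held the E-box, 4.83% the E'-box, 1.73% the D-box, 1.83% the cyclic AMP element and 0.439% the glucocorticoid element.

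Usp2 and Per1 were higher after ethanol in the level of their RNA, by 1.30-fold and 1.24-fold, and the other 8 clock genes differed by less than 10% in either direction in the same fit. With the choroid plexus score as a covariate 3 of the 8 differed more. Their log2 fold changes were then -0.34 for Per2, 0.23 for Per3 and 0.15 for Dbp. Per2 was also at -0.17 with scaling by library size. It was at -0.155 to -0.21 without control library 1 or 3 or ethanol library 1 or 2. Per3 was at -0.17 without ethanol library 3. The choroid plexus score, a mean log2 CPM of the markers tested, was -0.22 and -0.04 in ethanol libraries 1 and 2. It was 3.228 in ethanol library 3 and 3.232 to 4.38 in the control libraries. The score thus parted the groups, though ethanol library 3 all but met the lowest control library. Values with this covariate therefore rest largely on ethanol library 3. By edgeR's quasi-likelihood test, with p-values adjusted over 18141 genes after Benjamini and Hochberg, 0 of the 10 were below the study's threshold of 0.2. Of all genes tested 0% were below it, since no adjusted p was smaller than 0.818, whereas the likelihood ratio test and DESeq2 each called 1 clock gene. The study, with its own processing of these libraries, did report genes below this threshold. Without adjustment, 2 clock genes were higher and 0 lower at p below 0.05, against 1.57% of all genes higher and 2.57% lower, which together are 752 genes. The 3 ethanol libraries lay wholly above the 3 control libraries for 3 clock genes (Per1, Cry2 and Usp2) and wholly below for 0, against 3.66% and 5.19% of all genes. The clock genes were chosen with earlier results of these data known, so these counts are no independent evidence of a direction. The log2 fold change was above 0 for 5 clock genes and below 0 for 5, with a median of -0.0036 beside a median of 0.0064 over all genes. In bulk tissue, fewer cells of a type and less RNA per cell cannot be told apart.

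**Figure D1:**
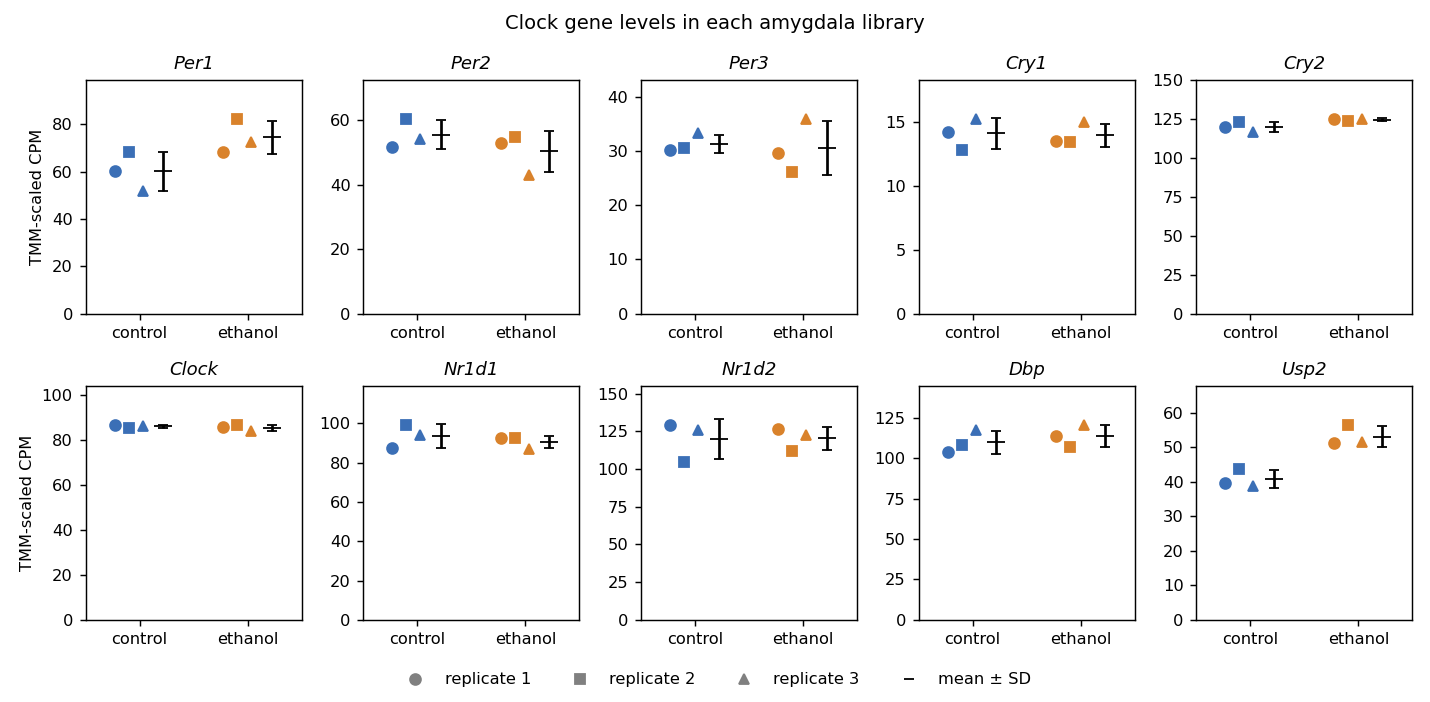
TMM-scaled CPM (vertical axes, each starting at 0) of the 10 clock genes in the 3 control (blue) and 3 ethanol (orange) libraries, with the group mean and SD as bars and the replicate number as the symbol. The ethanol libraries of Usp2 lie between 51.2 and 56.6 CPM, above the control range of 38.9 to 43.9, while for Clock all libraries lie between 83.8 and 86.7 CPM.

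Of the period genes, which encode the negative limb of the clock, Per1 (NCBI gene 287422, chromosome 10, 55681761 to 55696557 on the plus strand of Rnor_6.0, 24 exonic blocks) was the one that differed most. It had 60.5, 68.4 and 51.8 CPM in control libraries 1, 2 and 3 and 68.5, 82.4 and 72.6 CPM in the corresponding ethanol libraries. Control library 2 and ethanol library 1 almost met, so the groups were parted by a very narrow gap, which closed with scaling by library size and without control library 1. The group means were 60.2 ± 8.28 CPM and 74.5 ± 7.16 CPM (SD, n = 3 libraries each). The log2 fold change was 0.31 (SE 0.11, 95% interval 0.05 to 0.56), with an unadjusted p of 0.0255 and an adjusted p of 0.9999 by edgeR's quasi-likelihood test. An exact permutation test over the 20 arrangements of the libraries, 2-sided, gave p = 0.1, which is the smallest value it can give with 3 against 3. Over 14 alternative fits the log2 fold change lay between 0.21 and 0.41, and the unadjusted p was below 0.05 in 10 of them.

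Per2 (NCBI gene 63840, chromosome 9, 98555154 to 98597362 on the minus strand), which encodes the repressor most needed for a stable rhythm, had 51.7, 60.5 and 54.2 CPM in the control and 53.0, 54.9 and 43.1 CPM in the ethanol libraries. Ethanol library 3 was the lowest of the 6, and the other ethanol values lay within the control range. The means were 55.4 ± 4.53 CPM and 50.4 ± 6.31 CPM (SD, n = 3 each), and the log2 fold change was -0.14 (SE 0.10, 95% interval -0.38 to 0.10, adjusted p = 0.9999 by edgeR). It ran from -0.039 without ethanol library 3 to -0.21 without ethanol library 2, and was -0.34 with the choroid plexus score as a covariate (unadjusted p = 0.0513, adjusted p = 0.874 by edgeR). Per3 (NCBI gene 78962, chromosome 5, 168088126 to 168123482 on the minus strand), the least essential period gene, had 30.1, 30.6 and 33.3 CPM in the control and 29.5, 26.2 and 35.9 CPM in the ethanol libraries. The ethanol libraries therefore held both the lowest and the highest Per3 level, and the groups overlapped. Its log2 fold change was -0.04 (SE 0.11, 95% interval -0.30 to 0.23, adjusted p = 0.9999 by edgeR). Leaving out control library 3 gave 0.010 and leaving out ethanol library 2 gave 0.064, both of the opposite sign, and the choroid plexus score as a covariate gave 0.23.

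The opposite signs of Per1 and Per2 were followed within libraries, where a ratio of counts does not depend on the scaling between libraries. This pair and the ratios below were chosen after the values had been seen, so the ratios are a description. Per1 was read 1.17, 1.13 and 0.956 times as often as Per2 in the control libraries and 1.29, 1.501 and 1.68 times as often in the ethanol libraries. Every ethanol ratio was above every control ratio, with means of 1.09 ± 0.114 and 1.49 ± 0.196 (SD, n = 3 each). The difference on the log2 scale was 0.46, and it lay between 0.36 and 0.56 when each library was left out in turn. The ratio of Per3 to Per2 was 0.583, 0.506 and 0.613 in the control and 0.557, 0.477 and 0.833 in the ethanol libraries, so its groups overlapped and ethanol library 3 stood above the rest.

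The cryptochromes, which join the period proteins in repressing CLOCK and BMAL1, differed less. Cry1 (NCBI gene 299691, chromosome 7, 24534593 to 24634098 on the plus strand) had 14.3, 12.8 and 15.3 CPM in the control and 13.5, 13.4 and 15.02 CPM in the ethanol libraries. The ethanol values lay inside the control range, and the log2 fold change was -0.01 (SE 0.09, 95% interval -0.23 to 0.20, adjusted p = 0.9999 by edgeR). The sign of so small a difference changed when control library 3, ethanol library 1 or ethanol library 2 was left out. Cry2 (NCBI gene 170917, chromosome 3, 81314151 to 81344143 on the minus strand) had 119.9, 123.3 and 116.7 CPM in the control and 125.0, 123.6 and 125.1 CPM in the ethanol libraries. The groups did not overlap, but the gap between the nearest libraries was small beside the control spread, and it closed when libraries were scaled by size only or by DESeq2's size factors and when control library 1 was left out. The means were 119.9 ± 3.30 CPM and 124.6 ± 0.879 CPM (SD, n = 3 each), and the log2 fold change was 0.05 (SE 0.05, 95% interval -0.07 to 0.18, adjusted p = 0.9999 by edgeR). Of the exonic bases of Cry2, 21% lie opposite the exons of another annotated gene (NCBI gene 108350416), whose reads were kept apart by the stranded counting.

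Clock (NCBI gene 60447, chromosome 14, 34418226 to 34502218 on the plus strand), which encodes the activating partner of BMAL1, varied least over the 6 libraries. It had 86.7, 85.4 and 86.1 CPM in the control and 85.7, 86.7 and 83.8 CPM in the ethanol libraries. The coefficient of variation was 0.747% over the control and 1.70% over the ethanol libraries, and the 95% interval of the log2 fold change, -0.01 (SE 0.05), ran from -0.12 to 0.10 (adjusted p = 0.9999 by edgeR). With scaling by library size alone, the ethanol libraries of Clock lay wholly below the control libraries, as did 7.04% of all genes. Arntl, the gene of BMAL1, had 36.3, 37.9 and 37.2 CPM in the control and 42.9, 44.7 and 35.2 CPM in the ethanol libraries. Ethanol libraries 1 and 2 stood above the control range and ethanol library 3 below it, with a log2 fold change of 0.14 (SE 0.09, adjusted p = 0.9999 by edgeR). Npas2, a paralog of Clock that also pairs with BMAL1, had 75.9, 78.8 and 71.0 CPM in the control and 80.2, 72.0 and 64.1 CPM in the ethanol libraries, and ethanol library 3 was again the lowest. Its log2 fold change was -0.06 (SE 0.09, adjusted p = 0.9999 by edgeR).

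The REV-ERB genes, the repressors of Arntl, overlapped between the groups. Nr1d1 (NCBI gene 252917, chromosome 10, 86683875 to 86690815 on the minus strand) had 87.4, 99.2 and 94.3 CPM in the control and 92.4, 92.4 and 86.9 CPM in the ethanol libraries. Ethanol library 3 was the lowest of the 6, and the log2 fold change was -0.05 (SE 0.06, 95% interval -0.20 to 0.10, adjusted p = 0.9999 by edgeR). Its exons lie opposite those of Thra over 10.3% of their bases. Nr1d2 (NCBI gene 259241, chromosome 15, 8730871 to 8757165 on the plus strand) had 129.3, 104.5 and 126.1 CPM in the control and 126.3, 112.1 and 122.4 CPM in the ethanol libraries. The library numbered 2 was the lowest of each group, the means were 120.0 ± 13.5 CPM and 120.3 ± 7.32 CPM (SD, n = 3 each), and the 95% interval of the log2 fold change, 0.004 (SE 0.09), ran from -0.21 to 0.22 (adjusted p = 0.9999 by edgeR). With scaling by library size the sign of this value turned.

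Dbp and Usp2 are outputs of the clock. Dbp (NCBI gene 24309, chromosome 1, 101687896 to 101692845 on the plus strand), a transcription factor of the D-box whose RNA has one of the widest daily swings known in rodent tissues, had 103.8, 108.1 and 117.4 CPM in the control and 113.8, 106.7 and 120.6 CPM in the ethanol libraries. The groups overlapped, with a log2 fold change of 0.05 (SE 0.07, 95% interval -0.11 to 0.22, adjusted p = 0.9999 by edgeR). Usp2 (NCBI gene 115771, chromosome 8, 48403985 to 48432525 on the plus strand, 16 exonic blocks), a ubiquitin-specific protease that acts on clock proteins, had 39.7, 43.9 and 38.9 CPM in the control and 51.2, 56.6 and 51.6 CPM in the ethanol libraries. Every ethanol library stood above every control library, and the gap between the nearest libraries exceeded the whole range of either group. The means were 40.8 ± 2.68 CPM and 53.1 ± 2.98 CPM (SD, n = 3 each). The log2 fold change was 0.38 (SE 0.07, 95% interval 0.21 to 0.55), with an unadjusted p of 0.000833, the 15th smallest of all genes tested, and an adjusted p of 0.818 by edgeR's quasi-likelihood test. The exact permutation test gave p = 0.1, its smallest possible value.

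Whether Usp2 passed the threshold depended on the test. Its adjusted p was 0.0317 by edgeR's likelihood ratio test and 0.0191 by DESeq2, while limma-voom gave 0.813. The range over the 14 alternative fits was 0.0191 to 1. The likelihood ratio test called 0.138% of all genes as higher after ethanol and DESeq2 called 0.163%, and Usp2 was the only clock gene that either called. The unadjusted p of Usp2 was below 0.05 in 14 of the 14 alternatives, with log2 fold changes between 0.33 and 0.44, and its ethanol libraries lay above its control libraries under each scaling and filter tried and without any 1 library. The choroid plexus score of each library, entered as a covariate, left a log2 fold change of 0.37 for Usp2 (unadjusted p = 0.0152, adjusted p = 0.874 by edgeR) and of 0.32 for Per1 (unadjusted p = 0.128, adjusted p = 0.879 by edgeR).

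**Figure D2:**
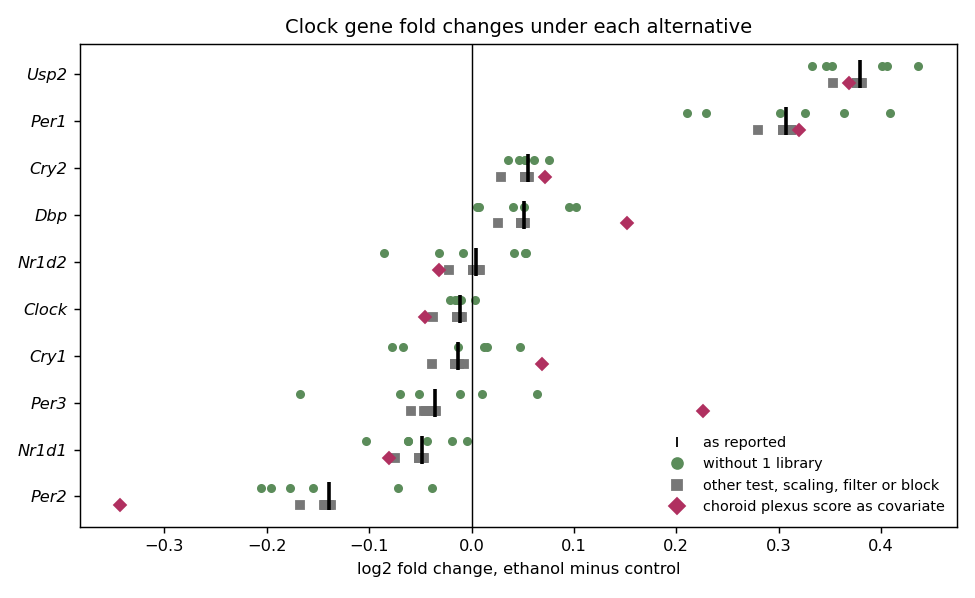
Log2 fold change of each clock gene (horizontal axis) as reported (black bar), without each library (green), with another test, scaling, filter or block (grey) and with the choroid plexus score as a covariate (red). Usp2 stays between 0.33 and 0.44 and Per1 between 0.21 and 0.41, while Per3 runs from -0.17 to 0.23.

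Within libraries, Usp2 also stood apart from Dbp, the other output gene. The ratio of Usp2 to Dbp counts was 0.382, 0.406 and 0.332 in the control and 0.450, 0.530 and 0.428 in the ethanol libraries. The groups did not overlap, with means of 0.373 ± 0.0381 and 0.469 ± 0.0537 (SD, n = 3 each) and a log2 difference of 0.33, which lay between 0.24 and 0.39 when each library was left out. The ratio of Usp2 to Per1 counts was 0.657, 0.642 and 0.751 in the control and 0.748, 0.686 and 0.711 in the ethanol libraries. These groups overlapped, with a log2 difference of 0.07, so the pair that was higher after ethanol was not separated by its ratio.

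**Figure D3:**
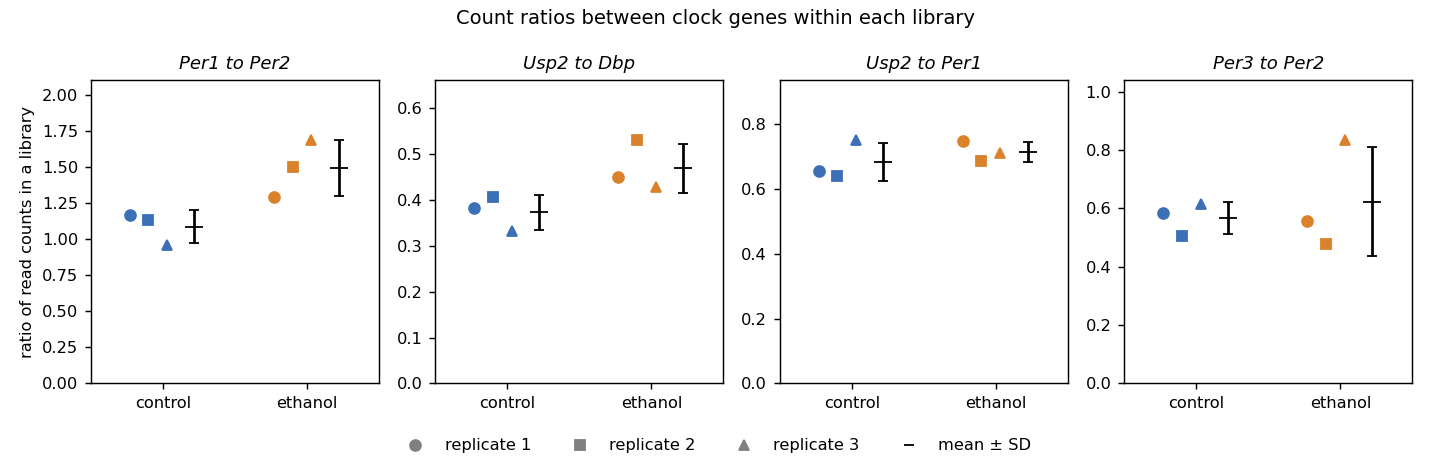
Ratio of read counts between a pair of clock genes (vertical axes, from 0) in each control (blue) and ethanol (orange) library, with mean and SD as bars. The ethanol ratios of Per1 to Per2 (1.29 to 1.68) lie above the control ratios (0.956 to 1.17), whereas those of Usp2 to Per1 overlap between the groups.

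To compare levels between genes, CPM were divided by the exonic length in kilobases (RPKM). Dbp had the highest level, with a mean of 67.3 RPKM over the 6 libraries and a range of 62.5 to 72.7. Nr1d1 followed with 36.1 RPKM (34.1 to 38.9), then Cry2 with 30.6 (29.2 to 31.3) and Nr1d2 with 26.1 (22.7 to 28.1). Between these neighbours, and between Nr1d2 and Usp2, no library of the lower gene reached a library of the higher one. The lower levels ran together: Usp2 had 10.2 RPKM (8.46 to 12.3), Clock 8.44 (8.25 to 8.53), Per2 8.28 (6.76 to 9.47), Per1 8.02 (6.17 to 9.81), Per3 5.80 (4.91 to 6.73) and Cry1 4.77 (4.36 to 5.19), and each overlapped the next. The levels of the cryptochromes thus differed more from each other than those of Per1 and Per2 did. The length is that of all annotated exons of a gene, so an isoform that uses only some of them has a higher level than its value here.

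**Figure D4:**
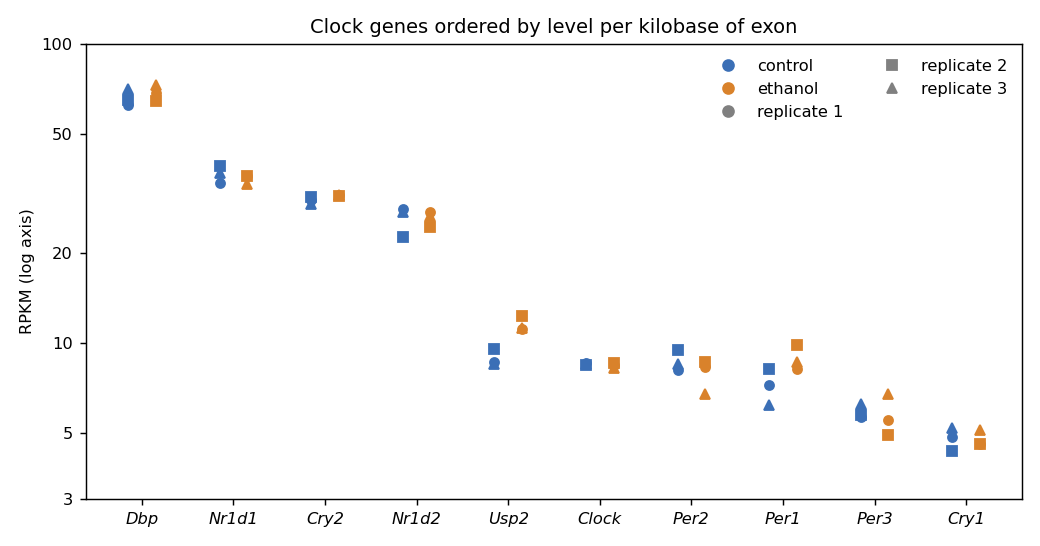
RPKM (vertical axis, log scale) of each clock gene in the 3 control (blue) and 3 ethanol (orange) libraries, ordered by the mean over all libraries. Dbp lies at 62.5 to 72.7 RPKM and Cry1 at 4.36 to 5.19 RPKM, and the ranges of neighbouring genes overlap from Usp2 downward.

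The summed level of the 10 genes was 723 to 737 CPM in the control and 755 to 759 CPM in the ethanol libraries. Without Per1 and Usp2 the groups overlapped, and the other 8 genes summed to 630.3 ± 11.3 CPM and 629.4 ± 12.03 CPM (SD, n = 3 each). Ethanol library 3 was the most extreme, since it held the highest level of 3 clock genes and the lowest of 3, whereas ethanol library 1 held neither the highest nor the lowest of any. Ethanol library 3 was also the one with the most Pmch, and its oligodendrocyte markers summed to 10138 CPM against 3761 to 8812 CPM in the others. Its choroid plexus markers summed to 518 CPM, against 15.8 and 17.4 CPM in ethanol libraries 1 and 2. The part of these in its low Per2 and high Per3 was not tested.

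Among 27 further genes of the clock, namely its other activators, nuclear receptors, kinases, ubiquitin ligase subunits and repressors, 26 were expressed enough to be tested. Of these, 21 had a log2 fold change above 0 and 5 below, with a median of 0.04, and 0 reached an unadjusted p below 0.05 or an adjusted p below 0.2 by edgeR. By DESeq2 and edgeR's likelihood ratio test the number at an unadjusted p below 0.05 was also 0. The median depended on the fit, since it was 0.01 with scaling by library size and -0.04 with the choroid plexus score as a covariate. Ciart, a repressor of CLOCK and BMAL1, was the only 1 of the 26 whose groups did not overlap. Of all genes tested, 3.66% were likewise higher without overlap, so 1 gene is near that share. Ciart had 7.66, 7.38 and 6.59 CPM in the control and 7.88, 8.70 and 7.73 CPM in the ethanol libraries. Its log2 fold change was 0.17 (SE 0.10, adjusted p = 0.9999 by edgeR). The receptor gene Prokr2 had the value farthest from 0, -0.23 (SE 0.18, adjusted p = 0.9999 by edgeR).

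**Figure D5:**
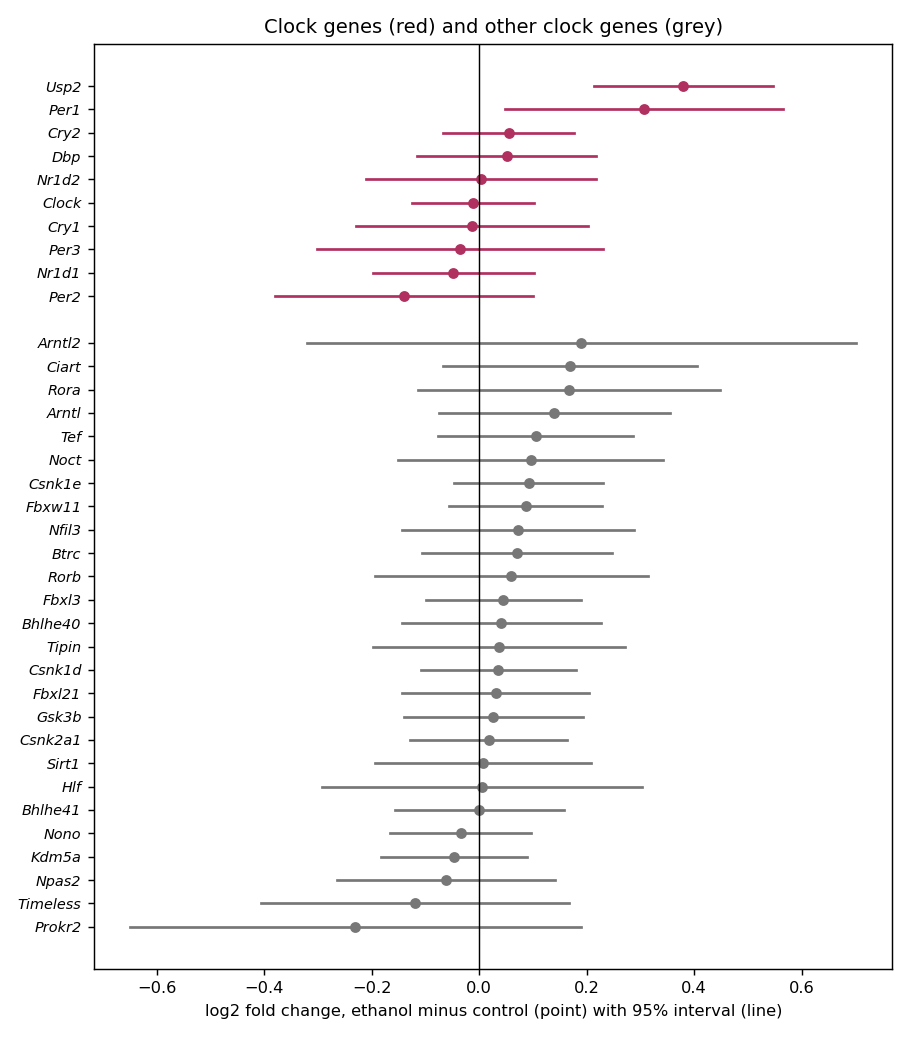
Log2 fold change of ethanol minus control (horizontal axis, points) with 95% intervals (lines) from edgeR's quasi-likelihood fit, for the 10 clock genes (red) and 26 other clock genes (grey). Only the intervals of Usp2 (0.21 to 0.55) and Per1 (0.05 to 0.56) lie to the right of 0, and no adjusted p was below 0.2.

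Genes that peak at about the same time of day as Dbp and genes of the opposite phase, such as Arntl, can be read against each other within a library. The mean log2 CPM of 11 genes of the first kind minus that of 5 genes of the second was 1.095, 1.14 and 1.15 in the control and 1.14, 1.17 and 1.22 in the ethanol libraries. The groups overlapped, and this difference includes Per1 and Usp2 among the 11 genes.

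Per1 and Usp2 are also known to respond to glucocorticoids, and Per1 to neuronal activity, so genes of those responses were read in the same fit. Of 20 glucocorticoid-response genes, not counting Per1 and Usp2, 19 had a log2 fold change above 0, and 14 had an unadjusted p below 0.05 in that direction, but 0 had an adjusted p below 0.2 by edgeR. Of all genes tested, 1.57% had an unadjusted p below 0.05 in that direction. The list was chosen with earlier results of these data known. It holds genes that the study had picked with the help of these libraries, such as Dusp1 and, with chromatin data from other rats, Hif3a. It also holds Sgk1, which the study took up as a known glucocorticoid-response gene. The count from this list is therefore no independent evidence of a direction. The median of the 20 was 0.40 and their summed level was 517 to 548 CPM in the control and 604 to 782 CPM in the ethanol libraries. The groups did not overlap, with ethanol higher, for 11 of the 20, against 3.66% of all genes tested. Klf9, a transcription factor induced by glucocorticoids that is itself rhythmic, is 1 of these 11 and was chosen after its values were seen. It had 61.5, 69.2 and 57.9 CPM in the control and 78.3, 96.8 and 91.1 CPM in the ethanol libraries, with a log2 fold change of 0.50 (SE 0.10, adjusted p = 0.818 by edgeR). Of 18 immediate-early genes, not counting Per1, 14 had a log2 fold change above 0 and 4 an unadjusted p below 0.05 in that direction, with a median of 0.18. Their summed levels were 530 to 572 CPM in the control and 525 to 703 CPM in the ethanol libraries, which overlapped. For 2 of the 18 the groups did not overlap, with ethanol higher, against 3.66% of all genes tested. This list too was chosen with earlier results of these data known. Whether either response had a part in the levels of Per1 and Usp2 was not tested.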

How the data were processed

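Libraries from a stranded mRNA kit were read from 1 end for 100 nt. The authors deposited unnormalized counts per gene, made with STAR 2.7.0f and featureCounts (Subread 1.6.3) on Rnor_6.0 with stranded counting. Genes were not filtered. Symbols came from a RefSeq gene table of GRCr8, matched by NCBI identifier. In R 4.3.3, edgeR 4.0.16 kept 18141 genes (filterByExpr, minimum count 10, total 15), scaled them by TMM (factors 0.976 to 1.01) and compared the groups with the quasi-likelihood test and Benjamini-Hochberg adjustment over all genes tested. The adjusted p threshold was 0.2, as in the study. Log2 CPM used a prior count of 2. SDs are over the 3 libraries of a group. A count of 3 equals 0.0424 to 0.0479 CPM. Alternatives used edgeR's likelihood ratio test, DESeq2 1.42.0, limma-voom 3.58.1, other scaling, no filter, a replicate block, a choroid plexus score as covariate, and each library left out. The procedure was tested on simulated data.

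The clock genes, the other gene lists and the markers were chosen with earlier results of these data known. The named genes are all clock genes, the partners Arntl and Npas2, and any other clock gene with an unadjusted p below 0.05. From the lists, a gene could be named where its groups did not overlap beside a result on a clock gene, but not all such genes were named. Ciart, Klf9, Six6, Prok2, Vip, Rgs16, Avp, Oxt, Pmch, Prokr2 and Thra were picked after their values were seen. The ratios were also chosen then.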

Additional observations from a re-analysis of the deposited data

How the results depend on the processing

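Genes with an adjusted p below 0.2 numbered 0 by edgeR's quasi-likelihood test and also by limma-voom, 77 by the likelihood ratio test and 75 by DESeq2. When each library was left out it ran from 0 to 83, with 4 without ethanol library 1 and 83 without ethanol library 3. The clock genes among them numbered 1 by the likelihood ratio test and 1 by DESeq2 (Usp2 in both) and 0 otherwise. The clock genes with an unadjusted p below 0.05 numbered 1 with the choroid plexus score as a covariate and 1 to 2 when each library was left out. All of these were higher after ethanol. Of all genes, 3.12% were higher at that p with the score, and 1.24% to 4.48% when each library was left out. Per1 was the gene lost, with the score and without control library 1 (unadjusted p = 0.0597 by edgeR), control library 3 (0.0815) or ethanol library 2 (0.0912). The clock genes whose groups did not overlap numbered 2 to 4. Over the same settings, 2.29% to 14.3% of all genes were higher without overlap and 4.41% to 13.0% lower. With scaling by library size these were Usp2 (higher) and Clock (lower), against 2.29% of all genes higher and 7.04% lower. Without control library 1 they were Usp2 (higher), Per2 and Nr1d1 (both lower), against 7.23% and 9.86%, and without ethanol library 3 they were Per1, Cry2 and Usp2 (higher) and Per3 (lower), against 14.3% and 13.0%.

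Log2 fold changes that turned sign were those of Nr1d2 with scaling by library size (-0.022) and with the choroid plexus score (-0.032), and of Per3 (0.23) and Cry1 (0.069) with that score. When each library was left out, the log2 fold change ran from -0.086 to 0.054 for Nr1d2, from -0.17 to 0.064 for Per3, from -0.078 to 0.047 for Cry1 and from -0.021 to 0.003 for Clock. Those of Per1, Per2, Cry2, Nr1d1, Dbp and Usp2 kept their sign in each of the 14 alternatives, though not their size: Per2 ran from -0.34 to -0.039, Nr1d1 from -0.10 to -0.004 and Dbp from 0.005 to 0.15. The cause of these changes was not tested. Of the 26 other clock genes, 2 had an unadjusted p below 0.05 with the choroid plexus score, against 956 of all 18141 genes in that fit. Without ethanol library 3 there were also 2, against 1629 of all 18356 genes in that fit.

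Both groups carry the replicate numbers 1, 2 and 3. Deviations from the group means over 14241 genes correlated by 0.03, 0.39 and 0.21 for libraries of the same number. Control libraries 2 and 3 correlated best with the ethanol library of their own number, but control library 1 with ethanol library 3 (0.30). These correlations do not settle whether the numbers are pairs, and the main fit did not pair the libraries. With the replicate block, 0 genes had an adjusted p below 0.2 and 1015 an unadjusted p below 0.05. The log2 fold change was 0.31 for Per1 (SE 0.07, unadjusted p = 0.00461, adjusted p = 0.634 by edgeR). For Usp2 it was 0.38 (SE 0.05, unadjusted p = 0.000284, adjusted p = 0.588 by edgeR).

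With 3 against 3 the exact permutation test cannot give a p below 0.1. The least read clock gene, Cry1, had at least 865 reads in each library.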
